A study of Mus musculus with 37 samples.

Results

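The genes described are the neutrophil-attracting chemokines Cxcl1, Cxcl2, Cxcl3, Cxcl5 and Ppbp, the growth factors Csf3 and Csf2, and the receptors Cxcr2 and Csf3r. They were chosen by symbol, and all 9 were found among the 39017 genes of the deposited count table. RNA of 37 bulk tumours was sequenced from C57BL/6 mice that carried subcutaneous implants of clones of pancreatic tumour cells and received no treatment. Tumours were taken 3 weeks after implantation. A title such as bulk_2669c4_no1 is read here as tumour 1 of the implanted clone bulk_2669c4, and titles with the same number before the letter c as related clones, which the labels do not spell out. The prefix bulk in these names is the labelled sample type, bulk tumours. By the labelled T cell phenotype there were 15 high tumours from 7 clones, 4 intermediate tumours from 2 clones and 15 low tumours from 7 clones, while 3 tumours carry no phenotype. Driver alleles of the clones, the age and sex of the mice and the way the phenotype was measured were not given in the sources used here. Because the same implanted cells gave rise to all tumours of 1 clone, clones and not tumours were counted as replicates. The comparison that the series was built for is T cell high against T cell low tumours.

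In mice the chemokines Cxcl1, Cxcl2, Cxcl3, Cxcl5 and Ppbp bind the receptor Cxcr2, which is carried mainly by neutrophils and directs their movement out of the marrow and into inflamed tissue. Csf3, also called G-CSF, drives the production of neutrophils through Csf3r, and Csf2, also called GM-CSF, acts on neutrophils, macrophages and dendritic cells. Pancreatic tumour cells are a known source of several of these factors, while Cxcr2 and Csf3r mark the cells that answer them. Ppbp is also stored in platelets.

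The 5 chemokine genes lie together on mouse chromosome 5 (mm10, positions from GENCODE M21), in a stretch of 146.6 kb that holds 7 CXC chemokine genes in the order Cxcl5, Ppbp, Pf4, Cxcl3, Cxcl15, Cxcl1 and Cxcl2. Cxcr2 lies at chr1:74153989-74161246, Csf3r at chr4:126024550-126044440, Csf3 at chr11:98701263-98703629 and Csf2 at chr11:54247271-54249667. Csf2 is overlapped by the antisense gene Gm12223. No strand setting of the counting was given in the sources used here. Reads of the 2 genes may therefore not be told apart. The longest sequence that the promoters of Cxcl1, Cxcl2 and Cxcl3 share in the 250 bases before the start is GGGAATTTCCC, which has the form of a site for the inflammatory factor NF-κB, and these promoters are shown because the 3 neighbours share it. The lines give the bases before the gene start on the plus strand, 5′ to 3′, from RefSeq on GRCm38.p6, at chr5:90890995-90891240, chr5:90903649-90903870 and chr5:90785851-90786100 in the order printed, and capitals mark the shared sequence.
Cxcl1: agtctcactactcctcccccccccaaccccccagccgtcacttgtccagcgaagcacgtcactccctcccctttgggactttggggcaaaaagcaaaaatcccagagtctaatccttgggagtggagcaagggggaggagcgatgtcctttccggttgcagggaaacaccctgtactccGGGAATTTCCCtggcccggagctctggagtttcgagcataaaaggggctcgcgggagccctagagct
Cxcl2: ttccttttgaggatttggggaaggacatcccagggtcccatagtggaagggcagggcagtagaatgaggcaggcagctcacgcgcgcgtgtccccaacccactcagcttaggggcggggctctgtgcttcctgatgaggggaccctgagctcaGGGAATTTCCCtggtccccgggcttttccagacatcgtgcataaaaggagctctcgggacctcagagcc
Cxcl3: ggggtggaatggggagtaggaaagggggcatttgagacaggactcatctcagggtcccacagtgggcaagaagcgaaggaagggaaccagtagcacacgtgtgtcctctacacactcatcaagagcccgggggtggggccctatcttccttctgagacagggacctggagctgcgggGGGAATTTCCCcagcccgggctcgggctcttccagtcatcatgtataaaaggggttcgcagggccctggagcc
The printed lines hold 246, 222 and 250 bases, and those of Cxcl1 and Cxcl2 end before the RefSeq start. The shared sequence begins 71, 97 and 73 bases before the RefSeq start of Cxcl1, Cxcl2 and Cxcl3 in that order. Both strands of the same window were searched for these 11 bases in all 32851 RefSeq promoters, and 14 of them (0.0426%) held the sequence. Of the members 7 have an entry, and the 3 that hold it are those it was read from. A match describes letters in this window and does not show that a factor binds there.

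Libraries differed in depth and in content. Total counts were 7.39 to 102.33 M in the 34 tumours with a phenotype, with a median of 31.8 M. Liver and heart genes (Myh6, Myh7, Cps1 and Serpina3k) summed to 257.7 to 5922 CPM in 17 of these libraries and to at most 0.538 CPM in the other 17. The 17 libraries with these transcripts are all 16 tumours numbered 1 and 1 later tumour of clone bulk_2669c4. Of them, 7 libraries of 7 clones, 5 high and 2 low, resembled a library of another clone more closely than any 2 tumours of 1 clone resembled each other. The median absolute log2 difference over 11932 genes was as low as 0.083 between 2 such libraries of different clones, against 0.162 for the closest 2 tumours of 1 clone. Among libraries without the transcripts the closest 2 clones differed by 0.232. Levels and phenotype comparisons are therefore given first for the 17 libraries without liver and heart transcripts, from 7 high, 2 intermediate and 6 low clones, and then for all libraries. The word without refers to the 4 named genes only. In these 17 libraries Alb still reached 126.3 CPM, Ttr 150.5 CPM and Tnnt2 488.0 CPM, while Actc1 reached 1.08 CPM. Summed liver genes were 2.01 to 64.96 CPM in the high clones (median 4.61 CPM), against 4.38 to 316.8 CPM in the low clones (median 64.5 CPM).

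Every member was detected in all 37 libraries and passed the filter on low counts in every fit. The smallest count was 8 reads for Csf3, 12 for Csf2, 26 for Ppbp and 32 for Cxcl1, and at least 75 for the other 5 genes. Levels are CPM, read counts relative to library size, scaled between libraries by TMM. Per kilobase of annotated exon, the median level over the 17 libraries without liver and heart transcripts was 51.6 CPM for Cxcl2, 25.1 CPM for Cxcl5, 16.1 CPM for Csf3r and 6.59 CPM for Cxcr2. It was 5.12 CPM for Cxcl3, 5.11 CPM for Cxcl1, 3.41 CPM for Ppbp, 2.82 CPM for Csf2 and 1.31 CPM for Csf3. Cxcl2 was thus the most abundant chemokine transcript per length and Csf3 the scarcest member, while the spread over tumours, up to 55.1-fold for Csf2, makes the order of Cxcr2, Cxcl3, Cxcl1, Ppbp and Csf2 uncertain.

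**Figure D1:**
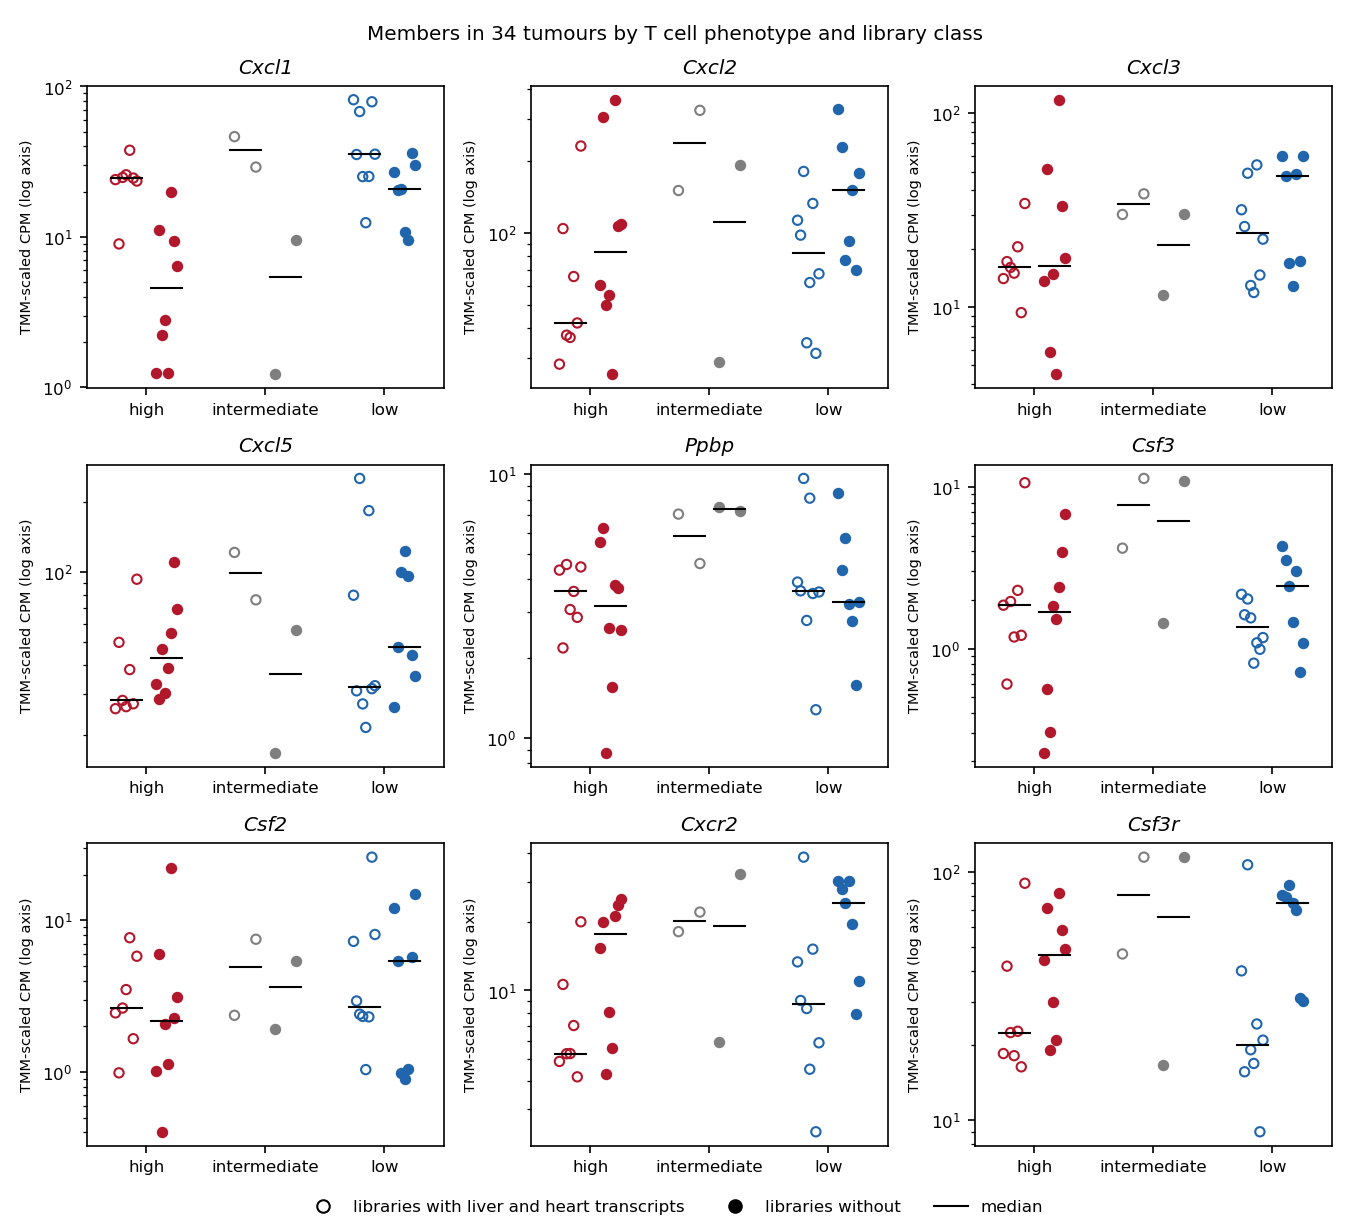
Levels of the 9 members in 34 tumours, in TMM-scaled CPM on log axes, by T cell phenotype. Open circles are libraries with liver and heart transcripts, filled circles those without, and lines are medians; for Cxcl1 the filled circles run from 1.24 to 19.8 CPM in high tumours and from 9.56 to 36.4 CPM in low tumours.

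Cxcl1 showed the largest difference between high and low clones among the 9 members. In clone sums of libraries without liver and heart transcripts it ranged from 1.21 CPM to 19.1 CPM in the 7 high clones, with a median of 6.26 CPM, against 9.29 CPM to 35.4 CPM in the 6 low clones, with a median of 21.3 CPM. Of the high clones, 6 of 7 lay below every low clone, and the exception was bulk_6556c4. The groups therefore overlapped. Means were 6.72 ± 6.16 CPM in high clones (SD, n = 7) and 21.2 ± 10.3 CPM in low clones (SD, n = 6). The log2 difference was -1.67 (SE 0.60), a level 3.18-fold lower in high clones, with an unadjusted p of 0.0137 in edgeR's quasi-likelihood test. After Benjamini-Hochberg adjustment over 17905 genes it did not pass the threshold of 0.05 (adjusted p = 0.711). In bulk tumours, fewer cells that make a transcript and less transcript per cell cannot be told apart.

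The same direction was seen for Cxcl1 when all libraries were used, with less separation. Clone levels ranged from 4.80 CPM to 28.5 CPM in 7 high clones, with a median of 12.6 CPM, against 12.4 CPM to 59.2 CPM in 7 low clones, with a median of 33.3 CPM. The log2 difference was -1.08 (SE 0.38, edgeR adjusted p = 0.659). It was -0.88 (SE 0.36, edgeR adjusted p = 0.419) in libraries with liver and heart transcripts alone, and -1.68 (SE 0.56, edgeR adjusted p = 0.208) in all libraries but the 7 that resemble another clone.

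The other chemokines differed less between high and low clones than they varied within each phenotype. Cxcl2, the most abundant of them per length, ranged from 24.9 CPM to 348.3 CPM in high clones, against 68.0 CPM to 259 CPM in low clones, with a log2 difference of -0.13 (SE 0.57). Cxcl3 gave -0.11 (SE 0.65). For Cxcl5, in mice known as an epithelial chemokine, clones ranged from 29.2 CPM to 106.3 CPM in the high group, against 35.1 CPM to 119.9 CPM in the low group, and the difference was -0.44 (SE 0.39). For Ppbp it was -0.33 (SE 0.39). High and low clones overlapped for each of these genes.

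Growth factors and receptors overlapped between the phenotypes as well. Csf3 differed by 0.21 on the log2 scale (SE 0.66), with an approximate 95% interval of -1.08 to 1.51. Csf2 differed by -0.09 (SE 0.86), with an interval of -1.77 to 1.58. Cxcr2 ranged from 4.22 CPM to 24.5 CPM in high clones, against 7.66 CPM to 29.5 CPM in low clones, with a log2 difference of -0.43 (SE 0.49). Csf3r gave -0.47 (SE 0.44). Csf3 turned to -0.28 without clone bulk_7160c2, and the signs of Cxcl2, Cxcl3 and Csf2 also changed when single clones were left out.

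No member was called between high and low clones. In edgeR 0 of 17905 genes (0%) passed, although 1168 had an unadjusted p below 0.05, and DESeq2 called 39 (0.218%), none of them a member. In all libraries 0 of 20348 genes (0%) passed in edgeR, 1516 had an unadjusted p below 0.05, and DESeq2 called 27 (0.133%), again without a member. Of the 9 members, 8 had a negative log2 difference, with a median of -0.33, against a median of -0.003 over all genes, of which 49.6% were positive. Over all libraries 7 of 9 were negative, beside 49.99% of all genes that were positive. Several members follow each other over the same clones, so these signs are not 9 separate observations. No member separated the high from the low clones completely, beside 0.14% of the 17905 genes that did so in either direction, and none did over all libraries, beside 0.0491% of genes.

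**Figure D2:**
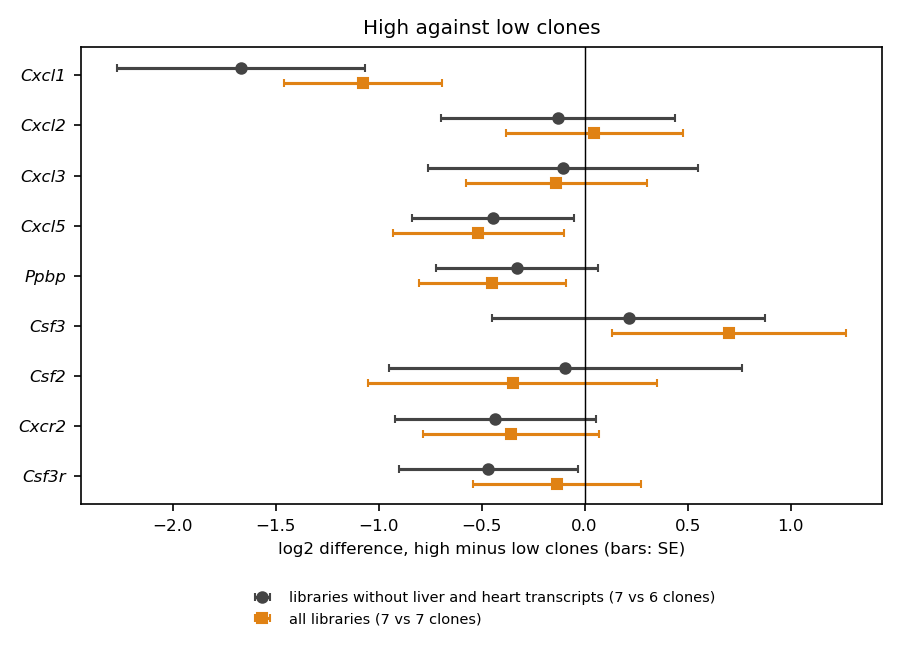
Log2 differences of high minus low clones for the 9 members, with bars for the SE, in libraries without liver and heart transcripts (circles, 7 against 6 clones) and in all libraries (squares, 7 against 7 clones). Cxcl1 lies farthest from 0 in both, at -1.67 and -1.08.

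Intermediate clones were represented by bulk_6422c5 and bulk_7160c5 only, and these 2 clones differed from each other. In libraries without liver and heart transcripts Cxcl1 was 1.20 and 9.72 CPM in the intermediate clones bulk_6422c5 and bulk_7160c5, against a median of 21.3 CPM in 6 low clones, and the log2 difference was -1.99 (SE 0.99). Csf3 was 1.43 and 11.02 CPM, against 0.697 CPM to 3.71 CPM in the low clones, with a log2 difference of 1.58 (SE 0.90) that became -0.51 without bulk_7160c5. Ppbp was 7.44 and 7.36 CPM, against 1.54 CPM to 5.70 CPM in the low clones, with a log2 difference of 1.002 (SE 0.55). Adjusted p-values of edgeR for these 3 genes were 0.794, 0.840 and 0.831. Between intermediate and low clones 0 of 17905 genes (0%) passed in edgeR, 1123 had an unadjusted p below 0.05, and DESeq2 called 10 (0.0559%), none of them a member. Between high and intermediate clones edgeR called 1 gene (0.00559%) and DESeq2 3 (0.0168%), none of them a member, and Ppbp had the smallest p of the 9, at -1.33 (SE 0.53, edgeR adjusted p = 0.9996).

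The intermediate clones stood closer to the low clones for Cxcl1 and Ppbp when all libraries were used. Cxcl1 was 28.9 and 24.5 CPM in bulk_6422c5 and bulk_7160c5, within the 12.4 CPM to 59.2 CPM of the 7 low clones, and the log2 difference was -0.18 (SE 0.57, edgeR adjusted p = 0.921). These sums merge both kinds of library, weighted by depth. In bulk_6422c5 Cxcl1 was 46.4 CPM with liver and heart transcripts (44.6 M counts) and 1.22 CPM without (28.0 M). In bulk_7160c5 it was 29.1 CPM with them (102.3 M) and 9.57 CPM without (40.3 M). The part of the kind of library in this shift was not tested. Ppbp was 7.20 and 5.52 CPM, against 1.48 CPM to 8.30 CPM in low clones, with a log2 difference of 0.54 (SE 0.52, edgeR adjusted p = 0.681). For Csf3 the clones had 3.11 and 11.6 CPM, against 0.830 CPM to 2.93 CPM in low clones, and the log2 difference was 2.10 (SE 0.76, edgeR adjusted p = 0.176), or 0.88 without bulk_7160c5. Between intermediate and low clones 0 of 20348 genes (0%) passed in edgeR, 3261 had an unadjusted p below 0.05, and DESeq2 called 890 (4.37%), none of them a member. Between high and intermediate clones 0 (0%) passed in edgeR, 2099 had an unadjusted p below 0.05, and DESeq2 called 503 (2.47%), again without a member.

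Cxcl1 was higher in libraries with liver and heart transcripts than in libraries without them in each of the 15 clones that have both. The ratio ran from 1.17 to 38.1, with a median of 3.04. The largest was in intermediate clone bulk_6422c5, with 46.4 CPM in the library with the transcripts, against 1.22 CPM in the library without. In a fit with a term for each clone the log2 difference was 1.83 (SE 0.32, edgeR adjusted p = 8.16e-05). It was 1.82 (SE 0.43, edgeR adjusted p = 0.00610) when the 7 libraries that resemble another clone were left out, which leaves 8 clones with both kinds. The difference between kinds of library was 0.996 larger on the log2 scale in high than in low clones (SE 0.56), which did not pass the test (edgeR adjusted p = 0.496).

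The receptors went the other way. Cxcr2 fell by 0.75 on the log2 scale in libraries with liver and heart transcripts (SE 0.27, edgeR adjusted p = 0.0236) and was lower there in 12 of 15 clones. Csf3r fell by 0.71 (SE 0.28, edgeR adjusted p = 0.0381) and was lower in 10 of 15 clones. Both calls were lost without the 7 libraries that resemble another clone, where the log2 differences were -0.26 (SE 0.33) for Cxcr2 and -0.29 (SE 0.38) for Csf3r. They were also lost when 1 of several clones was left out, for Cxcr2 without bulk_2669c4, bulk_2838c3, bulk_6556c3 or bulk_6620c1, and for Csf3r without these or bulk_6419c5, bulk_6499c3 or bulk_6556c4. The call of Cxcl1 was kept in each of these fits. The other 6 members did not pass the test, and Cxcl2, Cxcl3 and Csf3 changed sign without the 7 libraries.

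The calls of Cxcl1, Cxcr2 and Csf3r, 3 of 9 members, stand against 50.3% of all 18593 genes called in this comparison (25.2% higher and 25.1% lower), so the share of members called was not above that of other genes. Without the 7 libraries 28.5% of genes were called. Cell type markers differed in the same comparison. Summed granulocyte markers were 63.8 CPM to 735.4 CPM in libraries with the transcripts (median 206.7 CPM), against 112.3 CPM to 708.2 CPM in libraries without (median 381.0 CPM). Of the 15 granulocyte markers 4 were called, Mmp9 and Cd177 lower and Camp and Ngp, made by immature neutrophils, higher. In libraries without the transcripts Camp and Ngp were near the floor, with medians of 0.070 and 0.516 CPM, each at 0 in 2 of 17. Platelet gene Gp1ba and fibroblast gene Dcn were higher too, while the platelet genes Gp1bb and Pf4, the macrophage genes C1qa, C1qb and C1qc, the ductal genes Krt19, Krt8 and Cdh1 and the collagens Col1a1 and Col1a2 were lower. In edgeR 0 of 5 T cell genes passed, and 0 had an unadjusted p under 0.05, the lowest being 0.108 for Cd3g. Their part in the differences of the members was not tested.

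**Figure D3:**
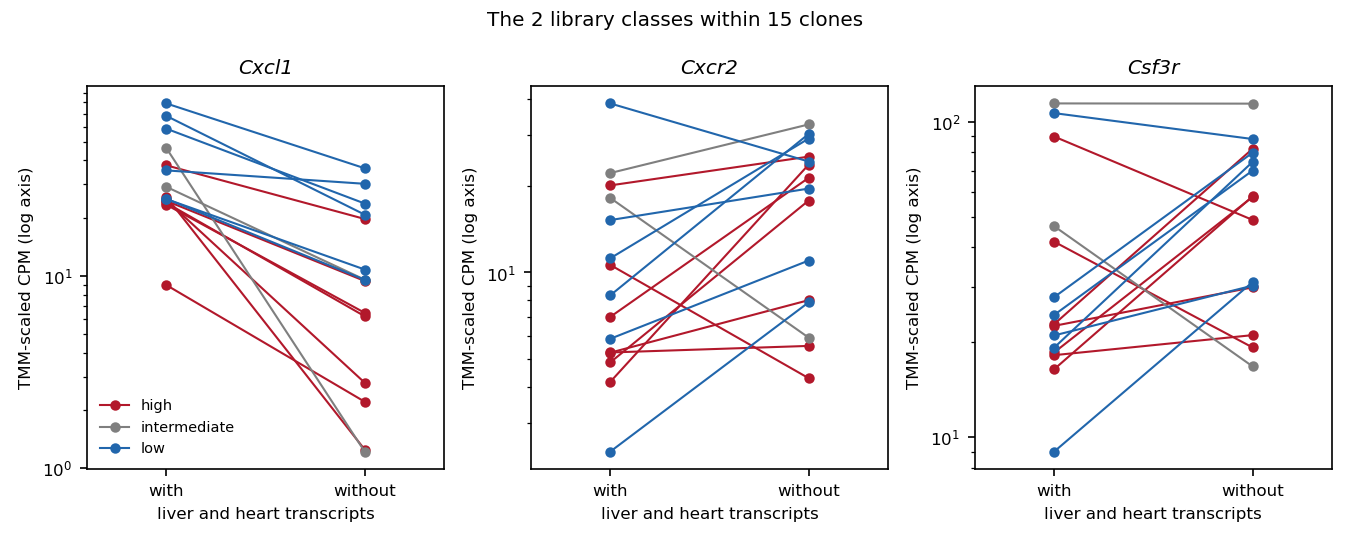
Cxcl1, Cxcr2 and Csf3r in libraries with (left) and without (right) liver and heart transcripts of 15 clones, in TMM-scaled CPM on log axes, joined by clone and coloured by phenotype. All 15 Cxcl1 lines fall to the right, while 12 of 15 rise for Cxcr2 and 10 of 15 for Csf3r.

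Clones of 1 phenotype differed most in the growth factors. Csf3 stood out in both bulk_7160 clones. It reached 10.6 and 6.75 CPM in the 2 tumours of high clone bulk_7160c2 and 11.3 and 10.9 CPM in the 2 tumours of intermediate clone bulk_7160c5. No other tumour with a phenotype exceeded 4.34 CPM. The lowest were 0.225 and 0.302 CPM, in tumours of high clones bulk_2838c3 and bulk_6421c2.

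Csf2 was high in other clones. It reached 22.2 CPM in the later tumour of high clone bulk_6556c4 and 26.03 CPM in the first tumour of low clone bulk_6556c3, but 7.66 CPM and 5.70 CPM in the other tumour of each. Low clones bulk_6694c2, with 8.05 and 14.99 CPM, and bulk_2669c4, with 2.93 to 11.97 CPM, followed. The lowest tumour was of high clone bulk_6421c2, with 0.403 CPM.

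Ppbp varied less, from 0.874 CPM in high clone bulk_6421c2 to 9.64 CPM in low clone bulk_6419c1. Both bulk_6422 clones were in its upper range, with 7.06 and 7.54 CPM in intermediate clone bulk_6422c5 and 8.12 CPM in the 1 tumour of low clone bulk_6422c1. Low clone bulk_6556c3 was at the lower end in both tumours, with 1.28 and 1.59 CPM.

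These 3 genes passed an F test of differences between clones within a phenotype, in edgeR with a term for the kind of library. The adjusted p was 0.00518 for Csf3, 0.00273 for Csf2 and 0.0161 for Ppbp. Without the 7 libraries that resemble another clone the adjusted p was 0.00570 for Csf3, 0.00788 for Csf2 and 0.0479 for Ppbp, and Cxcl3 (0.0294) and Cxcl5 (0.0415) passed as well, which makes 5 of 9 members beside 24.3% of genes. In the fit of all libraries Cxcr2 (adjusted p = 0.0630), Cxcl5 (0.0663), Csf3r (0.102), Cxcl3 (0.137), Cxcl2 (0.220) and Cxcl1 (0.243) did not. The 3 of 9 members called stand beside 25.8% of all genes. DESeq2 called 8 of 9 members, all but Cxcl1, beside 46.4% of genes, and edgeR without a filter on low counts called 7 beside 15.7%.

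**Figure D4:**
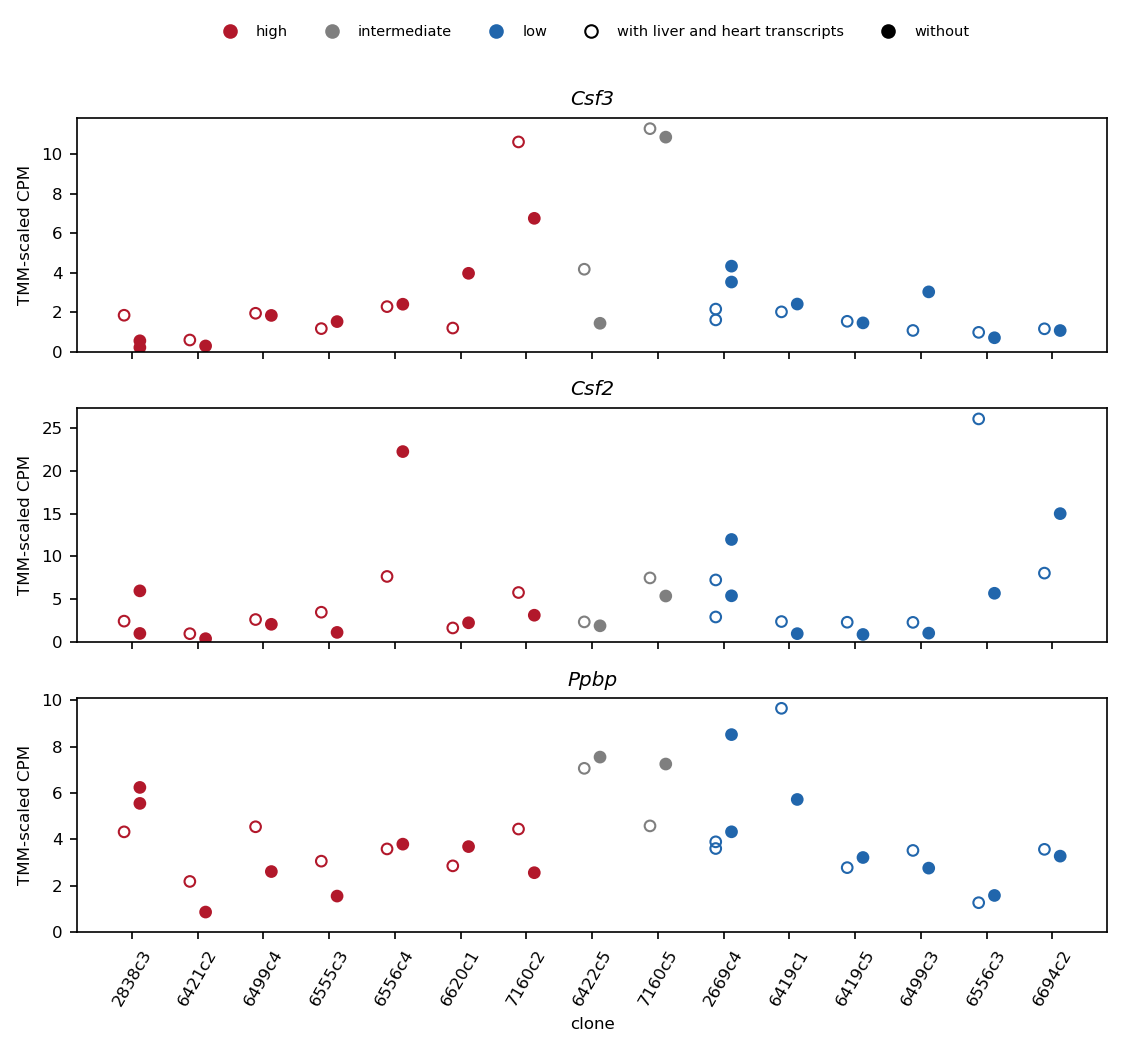
Csf3, Csf2 and Ppbp in each tumour of the 15 clones that have both kinds of library, in TMM-scaled CPM on linear axes, ordered by phenotype and named without the prefix bulk. Both bulk_7160 clones hold the 4 highest Csf3 values, from 6.75 to 11.3 CPM, and Csf2 is highest in single tumours of bulk_6556c3 and bulk_6556c4.

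Tumours of the same clone and the same kind of library could also differ widely. In high clone bulk_2838c3, tumours 3 and 2 had 11.1 and 1.24 CPM of Cxcl1, a ratio of 8.97, and 306.8 and 60.7 CPM of Cxcl2, a ratio of 5.05. Csf2 differed by a ratio of 5.90 between these tumours, while Cxcr2 (1.30), Ppbp (1.12) and Cxcl5 (0.861) were close. In low clone bulk_2669c4, tumours 3 and 4 differed by ratios between 0.553 for Cxcl5 and 2.22 for Csf2. The ratio of Cxcl1 was 1.31 between these and 2.31 between tumours 1 and 2 of this clone. Of the 3 pairs, the Cxcl1 ratio was above the 3.18-fold difference between the phenotypes in bulk_2838c3 and below it in both pairs of bulk_2669c4.

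Clones that share the number before the letter c were compared in 5 pairs. No member was called in any pair. edgeR called 15 genes (0.0807%) for bulk_6499c4 against bulk_6499c3, 0 (0%) for bulk_6556c4 against bulk_6556c3, 0 (0%) for bulk_7160c2 against bulk_7160c5, 31 (0.167%) for bulk_6422c5 against bulk_6422c1 and 2 (0.0108%) for bulk_6419c5 against bulk_6419c1. For the pairs with 0, 1290 and 734 genes had an unadjusted p under 0.05, and DESeq2 called 17 and 3.

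In the 2 pairs of a high with a low clone most members had log2 differences of opposite sign. In high clone bulk_6499c4, 7 of 9 members were lower than in low clone bulk_6499c3, led by Cxcl5 at -2.24 (SE 0.76, edgeR adjusted p = 0.339). In high clone bulk_6556c4, 8 of 9 were higher than in low clone bulk_6556c3, led by Cxcl3 at 2.11 (SE 0.86, edgeR adjusted p = 0.669) and Cxcl2 at 2.01 (SE 0.96). Without the 7 libraries Cxcl3 was 3.08 (SE 0.77, edgeR adjusted p = 0.277) in that pair. The log2 difference of Cxcl1 was negative in both pairs, at -0.74 (SE 0.88) and -0.93 (SE 0.87). Granulocyte markers had log2 differences of the same direction, with 5 of 15 positive in the bulk_6499 pair (median -0.50) and 15 of 15 positive in the bulk_6556 pair (median 1.69), and their part was not tested. Of all genes, 53.3% were positive in the bulk_6499 pair and 57.5% in the bulk_6556 pair. Pairs of other phenotypes were one-sided too. Between the low clones bulk_6419c5 and bulk_6419c1, 0 of 9 members were positive, beside 51.9% of genes. It was 8 of 9 for bulk_6422c5 against bulk_6422c1 (52.5% of genes) and 1 of 9 for bulk_7160c2 against bulk_7160c5 (50.3%).

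Cxcr2 and Csf3r, both carried by neutrophils, were the most closely related members over clones. Over 15 clones without liver and heart transcripts Pearson's r of the log2 levels was 0.95 and Spearman's rho 0.85, with a permutation p of 1e-05 for r, the smallest that the resamples can give (adjusted over 8 relations, 8e-05). Without the 2 clones farthest from the median of Csf3r, r was 0.93. Cxcr2 levels were split by a gap, with 6 clones from 4.22 CPM to 10.8 CPM and 9 clones from 17.5 CPM to 33.1 CPM. Within these sets r of Csf3r with Cxcr2 was 0.81 (exact permutation p = 0.0625, 6 clones) and 0.53 (exact permutation p = 0.143, 9 clones). As the sets were divided by Cxcr2 itself, each holds a narrower range of it than the 15 clones.

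The chemokines and Csf3 followed Cxcr2 less closely. Over the 15 clones r was 0.73 for Cxcl2 (adjusted permutation p = 0.00820), 0.67 for Csf3 (0.0176), 0.63 for Cxcl5 (0.0256), 0.60 for Cxcl3, 0.59 for Ppbp and 0.58 for Cxcl1 (0.0279 each), and 0.30 for Csf2 (0.286). Spearman's rho passed after adjustment for Cxcl2 (0.66), Cxcl5 (0.62) and Csf3 (0.72) but not for Cxcl1 (0.45), Cxcl3 (0.43), Ppbp (0.45) or Csf2 (0.20). Within the 9 clones above the gap no relation had an exact permutation p under 0.05, and r was -0.13 for Cxcl2 and 0.21 for Cxcl1. Below the gap, over 6 clones, r was 0.92 for Cxcl3 (adjusted exact permutation p = 0.0667) and 0.96 for Csf2 (0.0444). Spearman's rho for Csf2 was 0.94 there (adjusted exact permutation p = 0.133). Without the 2 clones farthest from the median of Csf2, r was 0.76 over 4 clones (exact permutation p = 0.25).

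For each gene, the 2 clones farthest from the median of that gene were left out, which left 13 clones. The clones left out can differ from gene to gene. Pearson's r was then 0.75 for Ppbp (unadjusted permutation p = 0.00333), 0.59 for Cxcl2 (0.0352), 0.53 for Cxcl3 (0.0610), 0.50 for Cxcl5 (0.0854), 0.47 for Csf3 (0.104), 0.38 for Csf2 (0.199) and 0.34 for Cxcl1 (0.256). The coefficients of Ppbp and Csf2 were thus higher than over 15 clones, and that of Cxcl1 was the lowest. As the 13 clones can differ between genes, this order does not compare the genes over the same clones.

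Cxcl1 and Cxcr2 had coefficients of opposite sign in the 2 phenotypes. Pearson's r was 0.87 in 7 high clones (exact permutation p = 0.0139, adjusted 0.0542) and -0.67 in 6 low clones (exact permutation p = 0.140, adjusted 0.281). Spearman's rho was 0.71 in high clones (exact permutation p = 0.0881, adjusted 0.159) and -0.60 in low clones (0.242, adjusted 0.396), so neither coefficient passed after adjustment. Low clones bulk_6556c3 and bulk_6694c2 had the highest Cxcl1 of all clones, 35.4 and 29.5 CPM, with 7.66 and 10.8 CPM of Cxcr2, the lowest 2 values among low clones. Pearson's r with Cxcr2 also changed sign for Csf2, with 0.74 in high and -0.56 in low clones, and for Cxcl3, with 0.81 and -0.10. None of these passed after adjustment either. Differences between the coefficients of the 2 phenotypes were not tested. In libraries with liver and heart transcripts alone r was 0.88 for Cxcl2, 0.85 for Cxcl3, 0.88 for Cxcl5 and 0.92 for Csf3r, but 0.14 for Cxcl1 (16 clones, 7 of them with libraries that resemble another clone). This low value for Cxcl1 rests on 2 clones. Without the 2 farthest from the median of Cxcl1, r was 0.58 (unadjusted permutation p = 0.0284).

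**Figure D5:**
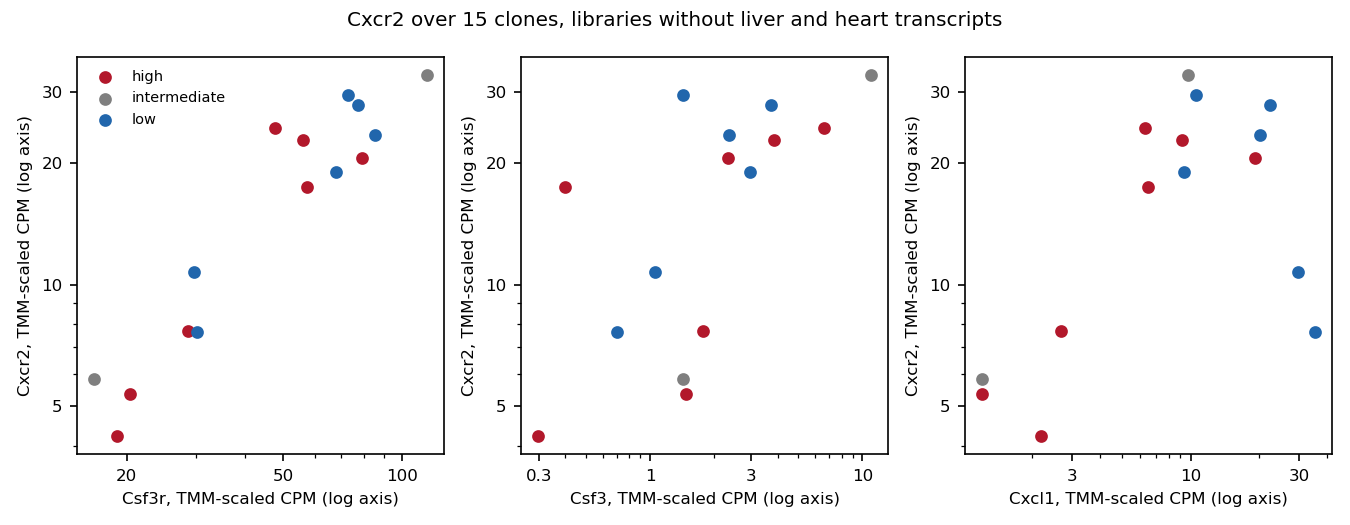
Cxcr2 against Csf3r, Csf3 and Cxcl1 over 15 clones, in TMM-scaled CPM on log axes, coloured by phenotype, in libraries without liver and heart transcripts. Cxcr2 and Csf3r lie along 1 line (r = 0.95), and low clones bulk_6556c3 and bulk_6694c2 lie at the right of the Cxcl1 panel with high Cxcl1 and low Cxcr2.

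Among 13037 genes with a mean of at least 1 CPM, Trem1 (r = 0.97), a receptor of neutrophils and monocytes, was most like Cxcr2 over the 15 clones, followed by Csf3r, Sycp2, Tnfsf14 and Cd244 (r = 0.92 to 0.95). For Csf3 the 5 most alike genes were C1qtnf3 (r = 0.90), Litaf, Faim2, Sfn and S100a14. For Cxcl1 they were Rara (r = 0.88), Casc3, Ubald2, Exosc10 and Noc2l, and for Cxcl5 they were Ppp1r37 (r = 0.86), Luzp1, Zbtb48, Nmnat1 and B9d1. Among the members themselves the closest chemokines were Cxcl2 and Cxcl3 (r = 0.91), while Cxcl5 had r = 0.27 with Cxcl2 and 0.14 with Cxcl3. All these values share the same 15 clone sums and are descriptions.

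Other genes of the pathway gave no called difference between high and low clones. Of 23 listed genes 22 were in the table and 21 were tested in libraries without liver and heart transcripts, where 8 log2 differences were positive and 13 negative, with a median of -0.07 against -0.003 over all genes. Cxcl15, another CXC chemokine of the chromosome 5 cluster, had the smallest p of the list. It ranged from 0.0228 CPM to 0.224 CPM in high clones, with 1 to 10 reads per tumour, against 0 CPM to 3.80 CPM in low clones, where only bulk_6694c2 was at 0. Its log2 difference was -3.94 (SE 0.86, unadjusted p = 0.000332, edgeR adjusted p = 0.705). Il17a, which induces several of the chemokines, was at 0 in 13 of the 17 libraries.

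Between the 2 kinds of library 10 of the 21 pathway genes were called, near the 50.3% of all genes. Sele (1.29), Cxcl15 (1.11) and Il6 (0.81) were higher in libraries with liver and heart transcripts on the log2 scale. Cxcr1 (-1.43), a second chemokine receptor of neutrophils, Csf2ra (-1.09), a subunit of the Csf2 receptor, Bcl3 (-1.02), Icam1 (-0.68), Pf4 (-0.54), Rela (-0.48) and Nfkb1 (-0.27) were lower. Rela and Nfkb1 encode subunits of NF-κB.

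Marker lists of cell types gave no call between high and low clones in edgeR either. The 14 granulocyte markers tested had a median log2 difference of -0.05, and the sum over all 15 listed ran from 108.6 CPM to 684.2 CPM in high clones, against 217.9 CPM to 512.9 CPM in low clones. The defining granulocyte marker Ly6g was at 0 in 2 of 17 libraries and had a median of 0.225 CPM, while S100a8 was found in all 17, from 5.79 CPM to 100.4 CPM. Mmp9 had the highest median of the 15, at 126.0 CPM, and the sum need not follow S100a8. The lowest S100a8 was in intermediate clone bulk_6422c5, yet the 2 intermediate libraries summed to 484.8 and 552.3 CPM, above the median of 381.0 CPM over all 17. Platelet markers summed to 24.5 CPM to 39.7 CPM in high clones, against 24.7 CPM to 58.0 CPM in low clones, with a median difference of -0.04 over 6 genes. The medians were 0.07 for 6 macrophage genes, -0.02 for 8 ductal genes, 0.04 for 5 fibroblast genes and 1.12 for 5 T cell genes, all positive. The T cell genes did not follow the order of the labels through the intermediate clones. They summed to 1.94 CPM to 12.98 CPM in high clones (median 11.2 CPM), to 5.90 and 22.4 CPM in the 2 intermediate clones and to 0.875 CPM to 8.04 CPM in low clones (median 3.10 CPM). High minus intermediate, their median log2 difference was -0.60, with 4 of 5 negative, and -0.93, with 5 of 5 negative, over all libraries, and 0 of 5 passed in edgeR in any comparison of phenotypes. Of 5 liver genes 3 were tested, with a median of -2.52, and of 4 heart genes 2, with a median of 0.18. The genes with the smallest p of each list were Ngp (1.74), Pf4 (-0.24), Mrc1 (-0.22), Cldn7 (2.76), Col1a2 (0.20), Trbc2 (2.24), Alb (-4.35) and Actc1 (0.73).

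The 3 tumours without a phenotype enter no comparison. In the libraries of bulk_6883c1 and bulk_6883c4, which have liver and heart transcripts, Cxcl2 was 4.89 and 9.85 CPM, below the 25.7 CPM of the lowest labelled tumour, and Cxcr2 was 1.30 and 4.03 CPM. Cxcl1 was 4.03 and 4.86 CPM there, below each of the 17 labelled libraries with these transcripts, which start at 8.98 CPM. The library of bulk_7062c3, without the transcripts, had 18.5 CPM of Cxcl1, 303.5 CPM of Cxcl2 and 16.8 CPM of Csf2. Its 127.3 CPM of Cxcl3 was the highest of all 37 libraries, next to 117.4 CPM in bulk_6556c4.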

How the data were processed

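For 37 tumour libraries the deposited counts of reads per gene were whole numbers and not normalised. The submitters' processing notes name STAR, featureCounts and the build mm10. Which versions, annotation and strand setting they were run with, and how multi-mapping reads were counted, was not given in the sources used here. Cxcl1, Cxcl2 and Cxcl3 are similar paralogues, so their split of reads is uncertain. No column was left unmapped.

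Counts of tumours of 1 clone were summed and tested with edgeR 4.0.16 (R 4.3.3, TMM, default expression filter by phenotype, two-sided quasi-likelihood test, 1 coefficient per phenotype). Kinds of library, clones within a phenotype and pairs of clones were tested on tumours with clone and library terms. The labels do not say that tumours came from separate mice, so p-values measure only the spread between these samples. P-values were adjusted by Benjamini-Hochberg over all genes tested, with a threshold of 0.05. SE is the absolute log2 difference over the square root of F and is approximate. A library had liver and heart transcripts above 10 CPM of the 4 named genes. Relations used log2 CPM (prior count 2) and two-sided permutation tests with 100000 resamples, or exact tests below 10 clones, in scipy 1.17.1. Likeness between libraries used genes of at least 5 CPM. Alternatives were DESeq2 1.42.0, limma 3.58.1, no filter, single clones left out and other sets of libraries.

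Counts were simulated for high against low clones without liver and heart transcripts (17905 genes). Of these, 78% of 100 genes changed by a log2 of 2 and 93% of 100 changed by 4 were called, with 9 calls among the rest. In the measured counts of this comparison 0 of 17905 genes passed in edgeR. Whether the same recovery holds for the 9 members, with SEs of 0.39 to 0.86, was not tested. Members, lists and the library rule were chosen with earlier results of these data known. Named are the 9 members, of each list the called genes or the 1 with the smallest p, any gene whose level stands beside a result, and the 5 genes most like Cxcl1, Cxcl5, Cxcr2 and Csf3 by Pearson's r. Tumours 1 and later were treated as a block in 1 alternative, but the numbers mark no stated pairing.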

Additional observations from a re-analysis of the deposited data

Results flagged for a closer look

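Of the 36 groups checked, 5 held 1 clone far from the others, all of them groups of high clones. Groups with and without the restriction on libraries share clones and are not independent, so this count cannot be set against a chance rate. High clone bulk_6556c4 stood apart in Cxcl3 with 113.4 CPM in libraries without liver and heart transcripts, where the next high clone had 33.2 CPM, and with 69.0 CPM over all libraries, where the next had 31.2 CPM. The same clone stood apart in Csf2, with 21.5 CPM without these transcripts and 14.9 CPM over all libraries. Its neighbours had 3.62 and 5.31 CPM. High clone bulk_7160c2 stood apart in Csf3 over all libraries, with 9.97 CPM, and the next high clone had 2.86 CPM.

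Reads of all 9 members were found in the 3 tumours that carry no phenotype. The lowest count of any member there was 30 reads, for Csf3 in bulk_6883c4.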

How the results depend on the processing

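Settings tried in addition after the data were seen were the fits of libraries with liver and heart transcripts alone and those without the 7 libraries that resemble another clone. The cause of the changes below was not tested. With DESeq2 39 genes were called between high and low clones without liver and heart transcripts, 10 between intermediate and low and 3 between high and intermediate; over all libraries it called 27, between intermediate and low 890 and between high and intermediate 503. For clones within a phenotype it called 8628, and for the pairs of bulk_6499, bulk_6556, bulk_7160 and bulk_6419 it called 136, 17, 3 and 52. Without a filter the bulk_6419 pair had 20. With the tumour number as a replicate block, on tumours, 77 genes were called between high and low and 828 between intermediate and low. The numbers follow the kind of library (mean correlation of deviations 0.41 between tumours numbered 1, 0.28 between later ones and -0.38 between both sorts), and tumours are not independent of their clone. limma voom called 8 between intermediate and low. Without the 7 libraries 5187 genes were called between kinds of library, and 93, 18 and 4 in the bulk_6499, bulk_6422 and bulk_6419 pairs. Leaving out 1 clone gave 0 to 1 call between high and low without the transcripts (1 without bulk_2838c3), 0 to 147 between intermediate and low (147 without bulk_6422c5), 0 to 5 between high and intermediate, 0 to 3 between these over all libraries (1 without bulk_7160c2 and 3 without bulk_7160c5), and 0 to 567 between intermediate and low over all libraries (567 without bulk_7160c2, 480 without bulk_6422c5 and 9 without bulk_6499c3).

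Signs of small log2 differences also changed. Between high and low clones over all libraries, Cxcl2 was -0.19 with the replicate block, -0.19 in libraries with the transcripts alone and -0.36 in limma voom, Csf3r was 0.018 in libraries with the transcripts alone and 0.018 without the 7 libraries, and Cxcl3 was 0.12 without the 7. Between kinds of library without the 7, Cxcl2 was 0.26, Cxcl3 0.43 and Csf3 -0.030. In the bulk_6499 pair Ppbp was -0.26 without the 7. With 1 clone left out, high minus low without the transcripts ran from -0.64 to 0.18 for Cxcl2, -0.93 to 0.13 for Cxcl3, -0.28 to 0.47 for Csf3 and -1.32 to 0.58 for Csf2, and intermediate minus low from -0.51 to 2.40 for Csf3. Over all libraries intermediate minus low ran from -0.36 to 0.019 for Cxcl1. Over all libraries high minus low ran from -0.20 to 0.25 for Cxcl2, -0.60 to 0.050 for Cxcl3, -0.12 to 0.89 for Csf3, -1.13 to 0.17 for Csf2 and -0.41 to 0.17 for Csf3r. Between kinds of library it ran from -0.20 to 0.10 for Cxcl3, -0.078 to 0.22 for Cxcl5, -0.014 to 0.22 for Ppbp and -0.11 to 0.27 for Csf3. The relation with Cxcr2 was -0.67 for Cxcl1, -0.10 for Cxcl3 and -0.56 for Csf2 in low clones, and -0.15 for Csf2 in libraries with the transcripts. The log2 difference of Cxcl1 kept its sign between high and low clones and between kinds of library in every setting run. Between high and low clones without the transcripts the SEs of the 9 members ran from 0.39 to 0.86.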
